A study of Mus musculus with 6 samples.

Results

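The genes described here serve oxysterols, the hydroxylated forms of cholesterol, in hematopoietic stem cells of young and old mice. They are the receptor gene Gpr183, the enzyme genes Ch25h, Cyp7b1 and Hsd3b7, and the nuclear receptor genes Nr1h2 and Nr1h3. They were chosen by symbol, and all 6 were found among the 24091 genes of the count table. Gpr183 was included because its level was already known to differ between ages in these libraries, so for the members the comparison by age is given as a description, without a p-value. The sort gate took lineage- Sca-1+ c-Kit+ cells with CD150 and without CD48, and every sample is labelled wt. There were 3 libraries at 20 months of age, called aged 1, aged 2 and aged 3, and 3 at 2 months, called young 4, young 5 and young 6. Each library is from pooled mice, with 4 aged and 30 young mice stated. The labels do not say whether these numbers hold per sample or per group, and what separates replicate pools, the spread behind every p-value here, may in part be technical.

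Gpr183 (also called EBI2) is a G protein-coupled receptor that couples to inhibitory G proteins and steers B cells, T cells and dendritic cells along oxysterol gradients in lymphoid tissue. Its ligand is made from cholesterol by the hydroxylases Ch25h and Cyp7b1 in turn and is inactivated by the dehydrogenase Hsd3b7, often in cells other than those that carry the receptor. Nr1h2 and Nr1h3 encode LXR-beta and LXR-alpha, transcription factors that bind oxysterols, pair with RXR and activate genes of cholesterol export and fatty acid synthesis.

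Gene starts of 5 of the 6 members had a sequence in the RefSeq promoter table of GRCm38.p6; Cyp7b1 was not matched. The 250 bases before the start are shown, 5′ to 3′ along the gene, for the receptor with its large difference by age, for the first enzyme of ligand synthesis and for the LXR pair, whose levels are set against each other below. Capitals mark the longest run of A and T only in Gpr183 (chr14:121965194-121965443, minus strand), the cyclic AMP response element TGACGTCA in Ch25h (chr19:34475149-34475398, minus strand) and the Ets motif CCGGAAGT, on either strand, in Nr1h2 (chr7:44553966-44554215, minus strand). Nothing is marked in Nr1h3 (chr2:91195117-91195366, minus strand), for which the more distal of 2 listed starts is shown.
Gpr183: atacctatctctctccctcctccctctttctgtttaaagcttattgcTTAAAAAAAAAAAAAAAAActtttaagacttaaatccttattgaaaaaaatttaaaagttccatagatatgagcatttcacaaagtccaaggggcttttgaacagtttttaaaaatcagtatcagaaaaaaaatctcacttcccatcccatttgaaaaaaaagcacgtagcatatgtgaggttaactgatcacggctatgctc
Ch25h: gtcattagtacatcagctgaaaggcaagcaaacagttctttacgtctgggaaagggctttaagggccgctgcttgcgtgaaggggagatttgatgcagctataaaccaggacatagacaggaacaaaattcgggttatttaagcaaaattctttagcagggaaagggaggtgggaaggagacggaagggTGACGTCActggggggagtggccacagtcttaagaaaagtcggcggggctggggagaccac
Nr1h2: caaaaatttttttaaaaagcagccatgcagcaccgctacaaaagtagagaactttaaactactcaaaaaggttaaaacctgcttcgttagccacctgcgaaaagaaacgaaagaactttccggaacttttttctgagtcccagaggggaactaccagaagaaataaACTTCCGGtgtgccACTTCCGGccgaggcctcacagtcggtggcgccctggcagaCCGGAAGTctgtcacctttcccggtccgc
Nr1h3: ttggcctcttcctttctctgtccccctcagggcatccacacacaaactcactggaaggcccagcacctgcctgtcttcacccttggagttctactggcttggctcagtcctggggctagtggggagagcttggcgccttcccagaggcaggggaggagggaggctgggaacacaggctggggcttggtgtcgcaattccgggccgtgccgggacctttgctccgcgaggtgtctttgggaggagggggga

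The stretch before Gpr183 is poor in G and C, at 32% of bases, lower than all but 2.38% of the 32851 promoters in the table, and its marked run of A and T is 19 bases long. The other stretches held 50.4% in Ch25h, 58% in Hsd3b7, 48.4% in Nr1h2 and 63.2% in Nr1h3. The cyclic AMP response element, present in 1.55% of all promoters, was found once, in Ch25h, beginning at position -61 from the start. The Ets motif, present in 2.88% of promoters, was found 3 times in Nr1h2 (positions -84, -70 and -29) and in none of the other members' stretches. The LXR response element (AGGTCA repeated after any 4 bases), in 0.0152% of promoters, and a single AGGTCA, in 14%, matched no member on either strand. The same search found the TATA box letters TATAAA (12.4% of promoters) in Ch25h, at position -151, and the GC box GGGCGG (32.7%) in Hsd3b7, at position -54. It found the Runx motif TGTGGT (14%) and GATA motif AGATAA (9.99%) in none. These are letter matches and describe the sequence only.

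The libraries held 16452829 to 21918658 counts. Levels are given as CPM, a gene's share of the library's counts after TMM scaling. A gene with 0 counts could still have up to 3, which equals 0.132 CPM in young 6 and 0.239 CPM in young 4. Limits and intervals on counts cover counting error only. Young 4 stood apart: Pearson's r of log2 CPM across 13413 genes, which are not independent replicates, was 0.951 and 0.948 with young 5 and young 6, against 0.989 between those, and Actb took 4.06% of its counts. Aged 2 had counts in 20918 genes, more than the 16084 to 17057 of the other libraries. The 13 genes of the stem cell list, Cd48 among them, summed to 4096 to 4791 CPM in aged and 2840 to 3764 CPM in young libraries. Of the sorting markers, Kit averaged 976 ± 99.0 CPM with age and 632 ± 282 CPM in youth, Slamf1 (CD150) 98.8 ± 18.9 and 64.3 ± 1.95, Ly6a (Sca-1) 121 ± 50.8 and 39.9 ± 9.58, and Cd48 1.40 ± 1.04 and 10.8 ± 3.17 (SD, n = 3 each). Procr, a further stem cell marker, averaged 114 ± 19.9 and 40.2 ± 2.40 CPM. Of 13413 genes tested, 5.76% were called (Benjamini-Hochberg adjusted p under 0.05, edgeR's quasi-likelihood test), 4.26% higher and 1.5% lower with age. Before adjustment, p was under 0.05 for 13.9% higher and 11.1% lower. The ranges of the age groups were separate for 36.6% of tested genes. Of the 13 stem cell genes, edgeR called 5 higher, Ly6a and Procr among them, and 2 lower, Cd48 among them. These stand beside the 4.26% and 1.5% of all tested genes. Kit and Slamf1 were not called. A part of these differences between the sorted cells in that of Gpr183 was not tested.

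Gpr183 was the member that differed most. It lies on chromosome 14 (121952331 to 121965193, minus strand, mm10). In aged libraries it had 1028, 804 and 1807 counts, or 49.3 CPM in aged 1, 41.5 in aged 2 and 83.9 in aged 3. In young libraries it had 15, 14 and 47 counts, or 1.19 CPM in young 4, 0.698 in young 5 and 2.06 in young 6. The groups did not overlap, and the lowest aged library stood 20.1-fold above the highest young one. Means were 58.2 ± 22.6 CPM with age and 1.32 ± 0.690 CPM in youth (SD, n = 3 each), a fitted log2 difference of 5.44 ± 0.49 (SE) with a 95% interval of 4.30 to 6.58.

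All young values of Gpr183 exceeded the limit of 3 counts, so it was measured in every library. Within the aged group the highest library was 2.02-fold above the lowest, and aged 3 was beyond the counting intervals of the other 2 (80.1 to 87.8 CPM against 46.3 to 52.4 in aged 1 and 38.7 to 44.5 in aged 2). Within the young group the ratio of highest to lowest was 2.95. By fold change Gpr183 ranked 17 of 13413 tested genes, between Ifnlr1, an interferon receptor gene at 1.06 CPM with age and under 3 counts in young libraries on average, and Gabra4, a GABA receptor subunit gene (10.1 and 0.238 CPM). In bulk RNA, more cells with Gpr183 and more Gpr183 RNA per cell cannot be told apart.

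**Figure D1:**
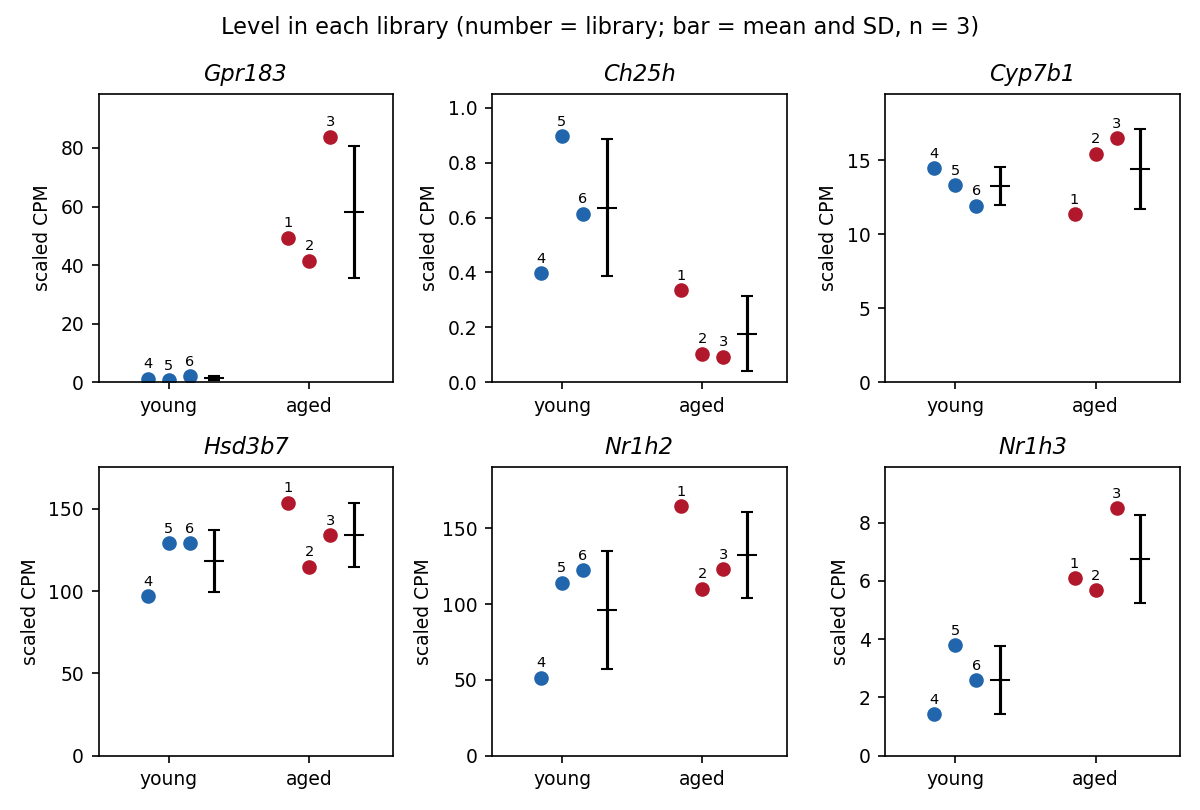
Scaled CPM (vertical axes, each from 0) of the 6 genes in the 3 young (blue) and 3 aged (red) libraries; numbers name the library and black bars give the mean and SD (n = 3). Gpr183 lies between 41.5 and 83.9 CPM in aged and at or below 2.06 CPM in young libraries, Ch25h and Nr1h3 also separate, and Cyp7b1, Hsd3b7 and Nr1h2 overlap.

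The whole interval of Gpr183 lies inside Ubac2, a gene of endoplasmic reticulum protein quality control on the plus strand, and the library kit does not mark strand. In GENCODE M21, of the same build, 0 of the 2887 exon bases of Gpr183 are shared with exons of Ubac2. Ubac2 measured 91.0, 69.1 and 81.7 CPM in aged libraries and 30.5, 48.4 and 55.4 CPM in young ones. These values did not overlap either, but the fitted log2 difference was 0.85 ± 0.25 (SE), and edgeR's adjusted p was 0.0925. DESeq2 called it, with a log2 difference of 0.82. Gpr18, a lipid receptor gene on the minus strand whose interval ends 36556 bases away within the same host interval, measured 1.97, 1.75 and 2.09 CPM in aged libraries and 1.11, 0.747 and 0.701 CPM in young ones (adjusted p = 0.0833 by edgeR; called by DESeq2, without a scaling factor, and after a correction for GC content and transcript length). Ubac2 and Gpr18 thus had higher values in all aged than in all young libraries, with smaller fitted differences than Gpr183. Whether reads from introns of Ubac2 add to Gpr183 was not tested.

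**Figure D2:**
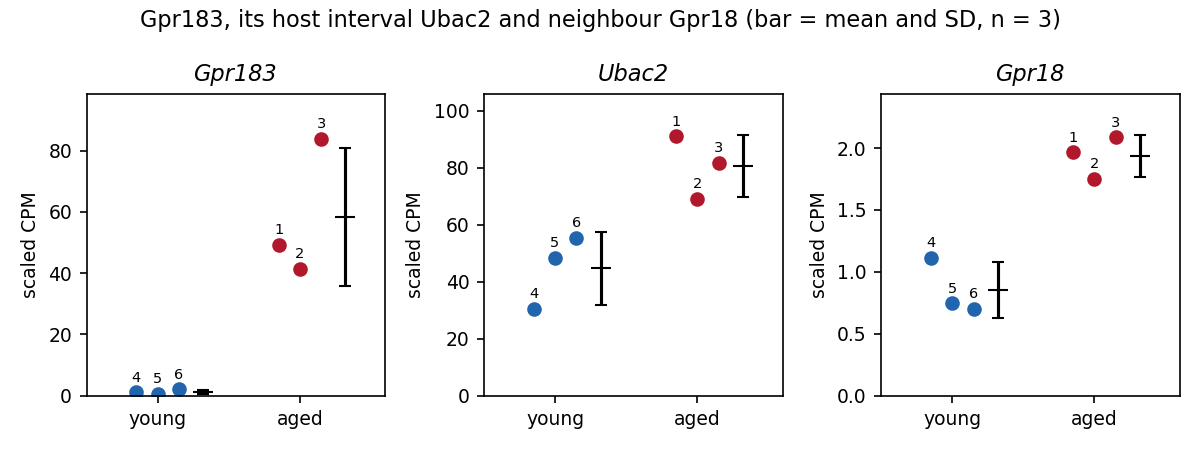
Scaled CPM (vertical axes, each from 0) of Gpr183, of Ubac2, whose interval contains it on the other strand, and of the neighbouring Gpr18 in young (blue) and aged (red) libraries, with mean and SD (n = 3). All 3 genes separate by age; the fitted log2 differences are 5.44 for Gpr183, 0.85 for Ubac2 and 1.20 for Gpr18.

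Cells of other types that can carry Gpr183 were looked for by their markers. B lineage genes (9 in the table) summed to 68.3 to 97.6 CPM in aged and 77.4 to 139 CPM in young libraries. Most of this was Cd79b (75.1 ± 14.9 CPM in aged, 94.9 ± 33.3 in young; SD, n = 3 each), while Ms4a1 never passed 3 counts and Pax5 had counts in aged 2 alone. Cd79a, which defines B cells, had 11, 17 and 16 counts in aged and 1, 0 and 3 counts in young libraries, or means of 0.716 and 0.0703 CPM. Of this list, 1 gene, Fcer2a (named after its value was seen), was called higher, at 4.14 ± 0.0721 against 0.807 ± 0.218 CPM. T and innate lymphoid genes (10) summed to 197 to 326 CPM in aged and 114 to 137 CPM in young libraries, and these ranges did not overlap. Gata3, also a gene of stem cells, made up most of it, at 212 ± 53.7 and 93.1 ± 11.7 CPM, and was called higher. Cd4 was called lower, at 0.279 ± 0.119 and 3.09 ± 0.956 CPM. Cd8a had 0 counts in all 6 libraries, and Cd3e and Cd3g never passed 3 counts.

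Dendritic cell genes (8) summed to 25.1 to 31.8 CPM in aged and 18.9 to 29.5 CPM in young libraries, with Clec9a called higher, at 16.4 ± 3.57 against 1.91 ± 0.323 CPM, and Flt3, also a progenitor gene, called lower, at 7.24 ± 0.705 against 17.1 ± 4.40 CPM. Zbtb46 was higher in every aged library (4.65, 3.41 and 4.50 CPM against 2.46, 2.99 and 2.85) and Clec10a lower (0.174 ± 0.194 against 1.67 ± 0.145 CPM), and neither was called. Itgax averaged 0.0688 and 0.204 CPM, and Siglech never passed 3 counts. Monocyte and macrophage genes (13) summed to 364 to 374 and 306 to 400 CPM, with Itgam called higher, at 17.8 ± 13.2 against 2.57 ± 0.904 CPM, and neutrophil and eosinophil genes (10) to 4.55 to 5.57 and 6.28 to 9.38 CPM, with none called. Endothelial genes (8) summed to 272 to 286 CPM in aged and 214 to 252 CPM in young libraries, stromal genes (8) to 16.5 to 30.2 and 8.43 to 78.6, and erythroid genes (6) to 66.7 to 100.3 and 29.0 to 95.4. Of these 3 lists, the stromal gene Cxcl12 alone was called, lower. Apart from Cd8a, Pax5 and those never past 3 counts, these marker genes were named after their values were seen. Over all genes of a list, every aged library was above every young one for 2 and below for 0 of the B lineage, 2 and 2 of the T and innate lymphoid, 2 and 2 of the dendritic, 1 and 4 of the monocyte, 1 and 4 of the neutrophil, 2 and 0 of the endothelial, 2 and 1 of the stromal and 3 and 1 of the erythroid genes. Of all tested genes, 19% were above and 17.6% below in this way, and nothing is read from the list counts. The listed genes above included Cd79a, Fcer2a, Gata3, Clec9a, Zbtb46 and Itgam. Those below included Cd4, Flt3, Clec10a and Cxcl12. The part of these cell types in the difference of Gpr183 was not tested.

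Ch25h, the hydroxylase gene that begins ligand synthesis (chromosome 19, 34473784 to 34475135, minus strand), was close to the limit of detection. It had 7, 2 and 2 counts in aged and 5, 18 and 14 counts in young libraries, or 0.336, 0.103 and 0.0928 CPM against 0.398, 0.897 and 0.614 CPM. Every aged library was below every young one, but aged 2 and aged 3 were under 3 counts and the counting intervals of aged 1 (0.135 to 0.692 CPM) and young 4 (0.129 to 0.928 CPM) overlapped. Over summed counts, 11 in aged and 37 in young cells, the scaled ratio of young to aged was 3.75, with a counting interval of 1.87 to 8.14. This interval leaves out the spread between libraries. For Cyp7b1, Hsd3b7 and Nr1h2, whose groups overlap, it was 0.816 to 0.995, 0.876 to 0.935 and 0.751 to 0.804, so it also left out equal levels there. The filter on low counts left Ch25h out of the fit, and it was the only member left out. The nearest genes, Fas and the lysosomal acid lipase gene Lipa, had adjusted p-values of 0.406 and 0.171 by edgeR. In GENCODE, Ch25h shares 159 of 1387 exon bases with Gm26902 on the other strand, so its few counts are uncertain. Gm38437, whose listed interval runs from 24942236 to 60774397 of the chromosome and so takes in Ch25h on the same strand, averaged 0.0801 CPM with age and 0.149 CPM in youth.

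Cyp7b1, which adds a further hydroxyl group (chromosome 3, 18071950 to 18243338, minus strand), differed little between ages. It measured 11.4, 15.4 and 16.5 CPM in aged libraries and 14.5, 13.3 and 11.9 CPM in young ones, and the ranges overlapped. The fitted log2 difference was 0.13 ± 0.22 (SE), with a 95% interval of -0.39 to 0.64. No gene of the table overlapped it.

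Hsd3b7, which inactivates the ligand and also acts in bile acid synthesis (chromosome 7, 127797074 to 127803802, plus strand), was the most abundant enzyme gene of the set. It measured 154, 115 and 134 CPM in aged libraries and 96.8, 129 and 129 CPM in young ones. Young 4 was the lowest library, and the groups overlapped. The fitted log2 difference was 0.18 ± 0.19 (SE), with a 95% interval of -0.27 to 0.63, and it was -0.13 once the dependence of counts on GC content and transcript length was removed (the GC and length correction). The interval overlaps that of Setd1a, a histone methyltransferase gene on the same strand (8.76 ± 2.88 CPM in aged, 8.30 ± 1.76 in young; SD, n = 3 each), and in GENCODE it shares 1717 of 2769 exon bases with the predicted gene Gm49388 and 1729 with 9430064I24Rik on the other strand, so its counts are uncertain.

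Nr1h2, for LXR-beta (chromosome 7, 44549616 to 44553965, minus strand), measured 164, 110 and 123 CPM in aged libraries and 51.5, 114 and 122 CPM in young ones. Young 4 was the lowest, and the other young libraries lay within the range of the aged ones. The fitted log2 difference was 0.46 ± 0.34 (SE), with a 95% interval of -0.33 to 1.26, and 0.14 without young 4. Its longest GENCODE transcript is 60.6% G and C, above 97.2% of tested genes, and the trend by GC content and length at Nr1h2 was -0.77 in young 4 and 0.57 in aged 1 on the log2 scale. After the correction the difference was 0.05.

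Nr1h3, for LXR-alpha (chromosome 2, 91184061 to 91195116, minus strand), was lower in level and differed more. It stood at 6.09, 5.68 and 8.50 CPM in aged libraries, from 127, 110 and 183 counts. In young libraries it stood at 1.43, 3.79 and 2.59 CPM, from 18, 76 and 59 counts. The lowest aged library, aged 2, was 1.499-fold above the highest young one, young 5. Means were 6.75 ± 1.52 and 2.601 ± 1.18 CPM (SD, n = 3 each), and the fitted log2 difference was 1.36 ± 0.38 (SE) with a 95% interval of 0.46 to 2.26. It was 1.06 without young 4 and 1.09 after the GC and length correction. The interval listed for the microRNA gene Mir684-1 on the other strand, from 7753089 to 129665839, takes it in; Mir684-1 averaged 6.70 and 11.3 CPM.

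By edgeR's quasi-likelihood test, 1 of the 5 tested members, Gpr183, passed the threshold that 5.76% of all genes passed; DESeq2 also called Nr1h3. Aged libraries were all above young ones for 2 members, Gpr183 and Nr1h3, where this held for 19% of tested genes, and all below for 1, Ch25h, against 17.6%. Since the members were chosen with this comparison known, nothing is read from these counts.

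**Figure D3:**
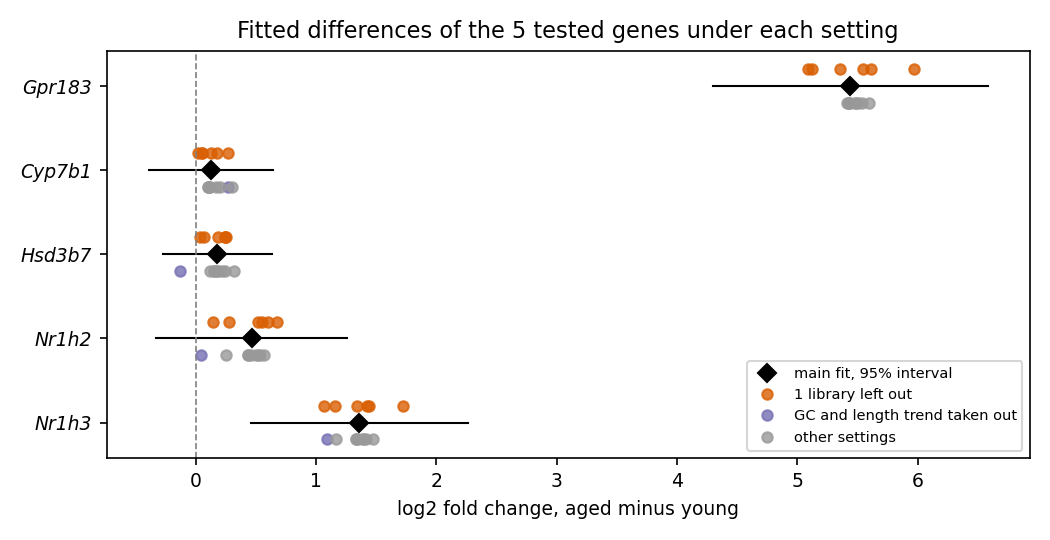
Fitted log2 fold change, aged minus young, of the 5 tested genes (rows): the diamond and line give the value and 95% interval from all 6 libraries, orange points leave out 1 library, purple points carry the GC and length correction, and grey points are the other settings. Gpr183 stays between 5.09 and 5.97 and Nr1h3 between 1.06 and 1.72, while Hsd3b7 crosses 0 under the GC and length setting.

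Per length of gene (RPKM, scaled CPM divided by the length in kb that the table lists), the order of levels differed between ages in the place of Gpr183. In aged cells Hsd3b7 (53.1 ± 7.71 RPKM) and Nr1h2 (50.2 ± 10.8) led and overlapped, followed by Gpr183 (19.8 ± 7.68), Cyp7b1 (6.68 ± 1.25), Nr1h3 (3.33 ± 0.752) and Ch25h (0.131 ± 0.102). In young cells Hsd3b7 (46.8 ± 7.38 RPKM) and Nr1h2 (36.4 ± 14.7) again overlapped, and Cyp7b1 (6.13 ± 0.590) and Nr1h3 (1.28 ± 0.581) followed. Ch25h (0.471 ± 0.185) and Gpr183 (0.448 ± 0.235) came last and overlapped (SD, n = 3 for each value). Every other neighbouring pair in these orders had ranges that did not overlap, although in young cells Nr1h3 in young 4 (0.706 RPKM) was close to Ch25h in young 5 (0.664). The mean of Gpr183 exceeded 70.6% of tested genes in aged and 10.3% in young cells; for Hsd3b7 these shares were 87.4% and 84.1%.

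The LXR pair was also compared within each library, a measure that does not depend on the contrast by age. Nr1h2 exceeded Nr1h3 per length in 6 of 6 libraries, 20.7-fold, 14.9-fold and 11.1-fold in aged 1 to aged 3 and 27.7-fold, 23.1-fold and 36.4-fold in young 4 to young 6. The mean log2 ratio was 4.38 ± 0.62 (SD, n = 6), and an exact two-sided sign-flip permutation test gave p = 0.03125, the smallest that 6 libraries allow. That value arises whenever all 6 ratios share a sign, so it adds nothing to the 6 of 6. All aged ratios were below all young ones, at 3.92 ± 0.45 and 4.84 ± 0.33 on the log2 scale (SD, n = 3 each); this difference by age follows from the values of the members above and was not tested. In the printed promoter stretches the Ets motif is in Nr1h2 and not in Nr1h3, and a relation of this to the levels was not tested.

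**Figure D4:**
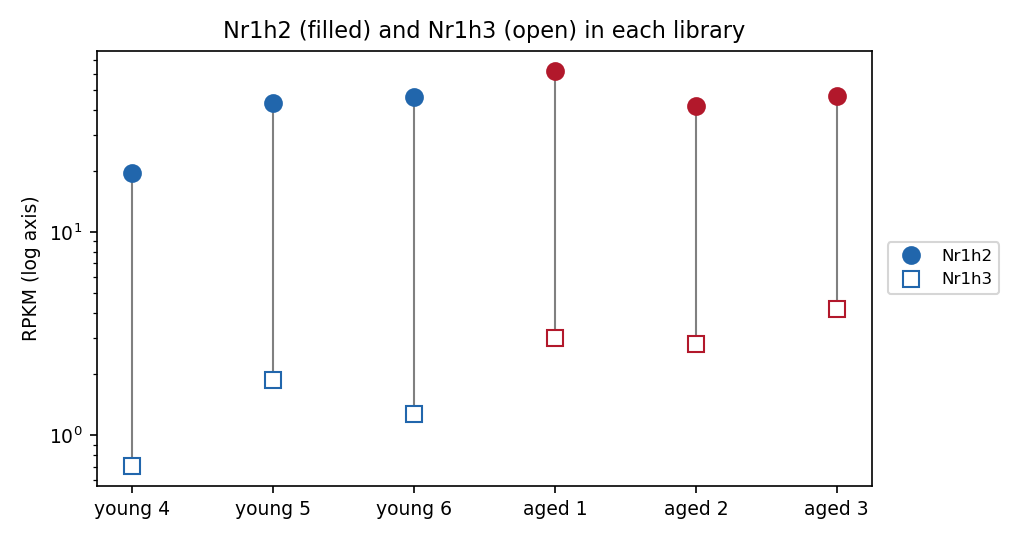
RPKM on a log axis of Nr1h2 (filled circles) and Nr1h3 (open squares) in each library, young in blue and aged in red, joined by grey lines. Nr1h2 is above Nr1h3 in all 6 libraries, by 11.1-fold in aged 3 to 36.4-fold in young 6.

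The genes whose pattern over the 6 libraries was most like that of Gpr183, by Pearson's r of log2 CPM, were Emp2, a tetraspan membrane protein gene (r = 0.999), Synm, an intermediate filament gene (0.999), Dnm3, a dynamin gene (0.998), Rilp, which encodes a Rab-interacting lysosomal protein (0.998), and Arhgap29, a GTPase-activating protein gene (0.998). These values describe 6 libraries that fall into 2 age groups and carry no test. Dnm3 measured 8.25, 7.84 and 16.2 CPM in aged libraries and 0.557, 0.299 and 0.745 CPM in young ones, so that, as with Gpr183, aged 3 and young 6 were the highest of their groups. Emp2 measured 3.64, 3.72 and 5.52 CPM in aged libraries and 0.239, 0.149 and 0.438 CPM in young ones.

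Around these members, 6 lists of related genes were examined: 189 genes, of which 155 were tested, and 9 were called higher and 5 lower by edgeR, or 9.03%, beside 5.76% of all tested genes. Their median log2 fold change was 0.15, and that of all tested genes was 0.04. The lists were chosen with earlier results of these data known. Their shares and counts, here and for each list below, are therefore a description, and no excess is read from them. Which genes were called rested on the libraries used. Scd1 and Cysltr2 kept their call with each library left out. Of the 14 genes called, 4 stayed called without aged 1 (with Acox2 and Tgm2), 3 without aged 2 (with Tgm2), 2 without each of aged 3, young 5 and young 6, and 11 without young 4.

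Of the other enzymes of oxysterol and bile acid synthesis and sterol esterification, 16 of 24 were tested. EdgeR called 2 higher and 0 lower, or 12.5%, beside 5.76% of all tested genes. The median log2 fold change was 0.00, and its sign turned with the scaling. Scaling also moved the median of all tested genes, which was 0.01 with median-ratio scaling and 0.20 without a scaling factor. Neither call held under limma-voom, which called 0 of these 16, and Slc27a2 lost its call with each library left out. Acox2, the peroxisomal oxidase that shortens the side chain of bile acid precursors, measured 2.92, 6.55 and 10.4 CPM in aged libraries and 0.636, 0.996 and 1.23 CPM in young ones (2.76 ± 0.52 SE on the log2 scale; edgeR's adjusted p = 0.0348). Slc27a2, an acyl-CoA synthetase and fatty acid transporter, rose from 0.403 ± 0.143 to 1.88 ± 0.804 CPM (SD, n = 3 each; adjusted p = 0.046 by edgeR). Both genes serve the peroxisomal handling of side chains, as background, and neither makes or breaks down the ligand of Gpr183. Cyp27a1, which makes another oxysterol in mitochondria and was named after its values were seen, had means of 2.61 ± 0.999 CPM with age and 5.10 ± 1.42 CPM in youth, with overlapping ranges (adjusted p = 0.164 by edgeR). Cyp7a1 and Cyp8b1, liver enzymes of bile acid synthesis, did not pass the filter.

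Of 30 sterol transport and oxysterol-binding proteins, 28 were tested, and edgeR called 0, as did DESeq2 and limma-voom; before adjustment, p was under 0.05 for 3 lower genes and 0 higher ones, beside 11.1% and 13.9% of all tested genes. Tmem97, a sterol-binding membrane protein gene, had a log2 fold change of -0.52 (adjusted p = 0.151), and Osbp, the oxysterol-binding protein gene, of -0.62 (adjusted p = 0.183 by edgeR). Their median log2 fold change was 0.12, but -0.13 after the GC and length correction, where that of all tested genes was -0.08. Of 22 LXR partners and coregulators, 21 were tested, and edgeR and limma-voom called 0; before adjustment, p was under 0.05 for 1 higher and 2 lower of these genes. Rxra, one of the RXR partners, measured 6.81, 5.26 and 6.41 CPM in aged libraries and 3.50, 4.09 and 3.24 CPM in young ones (adjusted p = 0.107 by edgeR, called by DESeq2). Its log2 fold change was 0.77, but 0.25 after the GC and length correction. Gps2, a corepressor subunit, had a log2 fold change of -0.36 (adjusted p = 0.188 by edgeR). The median of these partners was 0.19, but -0.04 without young 4 and -0.19 after the GC and length correction. For all tested genes the median was 0.04 without young 4 and -0.08 after that correction.

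LXR target genes held 5 calls among 23 tested genes of 29, or 21.7%, beside 5.76% of all tested genes. There were 4 higher and 1 lower, with a median log2 fold change of 0.30. Before adjustment, edgeR's p was under 0.05 for 8 higher and 2 lower genes, beside 13.9% and 11.1% of all tested genes. The call of Rgcc was lost without a scaling factor. Scd1, a fatty acid desaturase gene, measured 9.64, 9.44 and 9.28 CPM in aged libraries and 1.11, 0.747 and 1.10 CPM in young ones, 9.59-fold up, or 3.26 ± 0.27 (SE) on the log2 scale (adjusted p = 0.00381 by edgeR). Tgm2, which encodes transglutaminase, measured 438, 229 and 292 CPM in aged libraries and 46.5, 84.2 and 83.9 CPM in young ones, a 4.47-fold rise (adjusted p = 0.0219 by edgeR). Mertk, a receptor for the uptake of dying cells, rose 3.58-fold from a low level, 1.07 ± 0.241 to 3.91 ± 0.598 CPM (SD, n = 3 each). Mlxipl, a lipogenic transcription factor gene named outside the rule after its values were seen, was called higher. It averaged 0.905 ± 0.130 CPM with age and 0.0696 ± 0.0813 CPM in youth, under 3 counts, so no fold is given. Rgcc, a regulator of the cell cycle, fell 2.83-fold, from 83.9 ± 24.1 to 29.7 ± 6.14 CPM (SD, n = 3 each).

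On the whole list of LXR targets, 19 of 23 tested genes had a fitted difference above 0, beside 52.7% of all tested genes. Every aged library was above every young one for 10 and below for 2, beside 19% and 17.6% of all tested genes. Since the list was chosen with earlier results known, nothing is read from these counts. The cholesterol exporters Abca1 and Abcg1 and the ligase gene Mylip were among those not called. Abca1 had means of 23.3 ± 3.74 CPM with age and 19.5 ± 9.70 CPM in youth (SD, n = 3 each), and Mylip, which encodes a ligase that degrades the LDL receptor, at 27.4 ± 3.83 and 24.3 ± 2.29 CPM. Adjusted p-values by edgeR were 0.652 and 0.571. Abcg1 measured 423, 953 and 658 CPM in aged libraries and 2902, 613 and 606 CPM in young ones; its log2 fold change was -1.02 (adjusted p = 0.358 by edgeR) but 0.14 without young 4, the high library. These 3 genes were named after their values were seen. The genes called higher on this list encode enzymes, a receptor and a transcription factor, and none is an exporter of cholesterol. Of them, Scd1 alone kept its call with each library left out. A split of the list by function was not tested.

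A broad list of genes of inhibitory G protein signalling and receptor desensitisation held 3 calls among 38 tested, all lower. This is 7.89%, beside 5.76% of all tested genes. Before adjustment, edgeR's p was under 0.05 for 10 lower genes and 0 higher ones, beside 11.1% and 13.9% of all tested genes. The list is not limited to genes that act with Gpr183, and signalling by Gpr183 was not measured. Rgs2, which speeds the shut-off of G protein signals, measured 13.04, 9.39 and 8.31 CPM in aged libraries and 25.7, 62.2 and 94.99 CPM in young ones, a 5.95-fold fall (adjusted p = 0.0323 by edgeR). Gpsm2, a regulator of G protein alpha subunits that also orients the spindle, fell 2.99-fold, from 44.3 ± 10.8 to 14.8 ± 2.51 CPM, and Rap1b, a small GTPase gene of adhesion, fell 3.18-fold, from 508 ± 197 to 160 ± 32.7 CPM (SD, n = 3 each). The list's median log2 fold change was -0.11, beside 0.04 for all tested genes. Without a scaling factor these medians were 0.04 and 0.20, so the list stayed below all genes, and 1 gene, Rap1b, was called lower. The alpha subunit genes were not among the calls.

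Other receptors for lipids and cell guidance held 4 calls among 29 tested of 46, or 13.8%, beside 5.76% of all tested genes. There were 3 higher and 1 lower, with a median log2 fold change of 0.58. Before adjustment, edgeR's p was under 0.05 for 8 higher and 4 lower genes, beside 13.9% and 11.1% of all tested genes. Cysltr2, a leukotriene receptor gene, measured 72.5, 72.4 and 73.4 CPM in aged libraries and 11.2, 14.7 and 11.4 CPM in young ones (2.55 ± 0.18 SE on the log2 scale; edgeR's adjusted p = 0.00223). Ptger4, a prostaglandin E receptor gene, rose 3.53-fold to 73.3 ± 17.6 CPM, and Lpar6, a lysophosphatidic acid receptor gene, 2.25-fold to 282 ± 53.3 CPM. Gpr65, a proton-sensing receptor gene, fell 2.14-fold, from 20.2 ± 3.55 to 9.42 ± 1.66 CPM (SD, n = 3 each). Gpr65 lost its call with each library left out, without a scaling factor and with the filter of 5 CPM, Ptger4 without a scaling factor and Lpar6 with that filter. Ccr7 and Cxcr5, receptors that work beside Gpr183 in lymphocyte positioning, did not pass the filter on low counts.

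**Figure D5:**
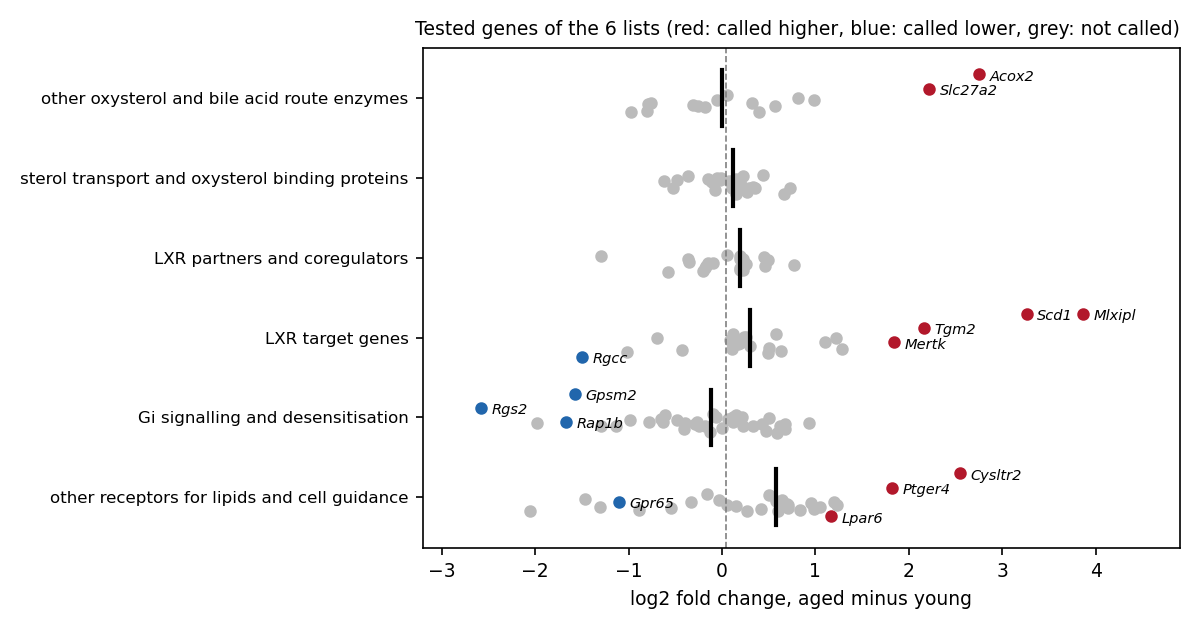
Fitted log2 fold change, aged minus young (horizontal axis), of the tested genes of the 6 lists (rows); red points were called higher, blue points lower and grey points not called by edgeR, black bars are list medians and the dashed line is the median of all tested genes, 0.04. Of 155 genes, 9 are red and 5 are blue; the value plotted for Mlxipl rests on a young level below 3 counts and is no fold estimate.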

How the data were processed

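RNA of 6 pools of sorted stem cells was sequenced from SMART-Seq v4 libraries as single reads of 51 cycles, per the labels' protocols. Values are the authors' raw gene counts, deposited beside gene positions and lengths; the submitters' processing notes name Trimmomatic, STAR 2.6.0, HTSeq 0.11.1, edgeR and mm10. The annotation and HTSeq's mode were not given in the sources used here.

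In R 4.3.3, edgeR 4.0.16 fitted the counts of all 6 libraries with age as the only term (TMM after filterByExpr, then glmQLFit and glmQLFTest), and p-values were adjusted over 13413 genes (Benjamini-Hochberg; threshold 0.05). CPM are TMM-scaled; log2 CPM used a prior count of 2. Standard errors are the fold change over the root of F.

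The members and lists were chosen with earlier results of these data known. Named genes are the members, overlapping or nearest genes, up to 4 called genes per list by smallest p or else 2 uncalled, the 5 genes most like Gpr183, its rank neighbours and sort or absent markers; values of some nearest genes are left out for length, and some marker genes of the summed lists are not reported here. Tested on counts simulated for 13277 genes, 86% of 4-fold and 13% of 2-fold changes were recovered, and 3 unchanged genes were called.

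The alternatives changed the scaling (median-ratio, upper-quartile, none), the filter (none, or 5 CPM in 3 libraries), the tool (DESeq2 1.42.0; voom in limma 3.58.1) or left out each library. Leaving out young 4 with aged 2, and removing each library's trend by GC content (longest GENCODE transcript) and length with splines of 4 degrees of freedom for 13148 genes, were added after seeing the data.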

Additional observations from a re-analysis of the deposited data

How the results depend on the processing

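The log2 fold change of Gpr183 ranged, under 15 alternatives, from 5.09 without aged 3 to 5.97 without young 6. Over the same alternatives Cyp7b1 ranged from 0.02 to 0.30, Nr1h2 from 0.05 to 0.67 and Nr1h3 from 1.06 to 1.72. Hsd3b7 ranged from -0.13, after removal of each library's trend by GC and length, to 0.32. On the log2 scale the trend removed at Hsd3b7 was 0.35, 0.01 and 0.11 in aged 1 to aged 3. In young 4 to young 6 it was -0.48, -0.002 and 0.006. The cause of this trend was not tested. With 1 library left out, the ranges were 5.09 to 5.97 for Gpr183, 0.02 to 0.27 for Cyp7b1, 0.03 to 0.25 for Hsd3b7, 0.14 to 0.67 for Nr1h2 and 1.06 to 1.72 for Nr1h3. Abcg1 ran from -1.38 without young 6 to 0.14 without young 4.

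The number of genes called, 772 of all genes and 14 of the lists, was 443 and 8 with at least 5 CPM, where fewer genes were tested, 2181 and 27 by DESeq2, and 1365 and 23 after removal of the trend by GC and length; the cause was not tested for the last 2. With 1 library left out it ran from 74 to 1029 and from 2 to 17. Higher genes made up 74.0% of calls, 50.3% after that removal and 57.5% by DESeq2. Without a scaling factor the median of all genes was 0.20 in place of 0.04, and after removal of the trend by GC and length it was -0.08.

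The log2 ratio of Nr1h2 to Nr1h3 was 4.76 without dividing by length, 4.45 as a median and 4.21 to 4.56 with 1 library left out, where 5 libraries allow no exact p below 0.0625. No paired analysis was possible because aged and young libraries share no replicate numbers. Depth limits Ch25h most.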
